A study of Mus musculus with 22 samples.

Results

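Microglia from Trem2 knockout (KO) mice were compared between 3 arrays that form set B and 3 arrays of KO mice fed cuprizone, 6 of the 22 arrays in the series. The members were taken from the array titles. The set B arrays are titled as Covi-Ox alone, whereas their description and their treatment field give cuprizone together with Covi-Ox. The labels do not settle which diet these mice ate, so the group is called set B throughout. If the description holds, the comparison asks what Covi-Ox adds to cuprizone in Trem2 knockout microglia. If the title holds, it sets Covi-Ox alone against cuprizone alone. The KO cuprizone arrays carry 1 treatment in every field.

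The mice behind all 6 arrays lacked Trem2, and the labels put the diets at 4 weeks, with cuprizone at 0.2% of the feed. The Covi-Ox diet held 0.1% of Covi-Ox T70, a blend of mixed tocopherols, with a further 1100 IU/g of alpha tocopherol. Mice given both additives first received the tocopherol diet for 2 weeks, and mice given cuprizone alone first stayed on normal chow for that time. Used beside them were KO control (2 arrays, untreated), KO set A (3 arrays, titled with both additives and described as Covi-Ox alone, the opposite conflict), and wild type (WT) mice fed cuprizone, Covi-Ox or both (3 arrays each). The labels do not give the strain, the age, the kind of knockout allele, or whether each array is a separate animal, so the p-values cover just the spread among these samples, which may be technical. The sorted cells were positive for CD11b, CD45 and F4/80, a gate that other macrophages and some neutrophils or monocytes can also enter.

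Cuprizone binds copper and leads to the death of oligodendrocytes, and the myelin debris left behind is cleared by microglia, the macrophages that reside in the brain. Trem2 is a lipid-sensing receptor that signals through Tyrobp, and it is needed for microglia to take on the disease-associated (DAM) state, in which genes of lipid handling and phagocytosis are raised. Tocopherols are the vitamin E family, lipid-soluble antioxidants. Microglia also respond quickly to handling: immediate-early transcription factors such as Fos and Egr1 and cytokines such as Il1b, Tnf and Cxcl10 rise within a short time when brain tissue is dissociated, besides rising in inflammation.

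The genes called in this comparison include the inflammatory genes Cxcl10 and Irf1, which were higher in set B, and the granulocyte genes S100a8 and S100a9, which were lower, so the promoters of these 4 genes are shown. They were chosen after their values were seen, because no immediate-early gene passed the test. Each sequence is the 250 bases before the RefSeq gene start, 5′ to 3′ in the direction of the gene (GRCm38.p6), with motif matches in capitals. Osm has no entry.
Cxcl10, chr5:92348890-92349139, minus strand: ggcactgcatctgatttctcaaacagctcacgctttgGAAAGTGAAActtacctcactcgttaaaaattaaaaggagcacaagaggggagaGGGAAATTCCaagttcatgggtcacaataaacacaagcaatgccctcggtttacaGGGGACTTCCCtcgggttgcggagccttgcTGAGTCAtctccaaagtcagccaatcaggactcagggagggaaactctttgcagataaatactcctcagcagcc
Irf1, chr11:53769764-53770013, plus strand: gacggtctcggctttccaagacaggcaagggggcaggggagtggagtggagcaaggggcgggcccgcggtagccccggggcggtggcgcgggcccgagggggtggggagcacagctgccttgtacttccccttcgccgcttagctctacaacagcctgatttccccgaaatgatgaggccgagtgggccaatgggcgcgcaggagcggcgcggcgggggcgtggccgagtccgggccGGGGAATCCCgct
S100a8, chr3:90668821-90669070, plus strand: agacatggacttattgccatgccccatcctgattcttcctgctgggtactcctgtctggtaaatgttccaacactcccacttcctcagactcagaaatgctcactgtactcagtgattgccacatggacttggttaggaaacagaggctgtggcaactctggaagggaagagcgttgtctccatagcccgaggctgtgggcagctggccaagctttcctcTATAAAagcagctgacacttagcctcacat
S100a9, chr3:90695722-90695971, minus strand: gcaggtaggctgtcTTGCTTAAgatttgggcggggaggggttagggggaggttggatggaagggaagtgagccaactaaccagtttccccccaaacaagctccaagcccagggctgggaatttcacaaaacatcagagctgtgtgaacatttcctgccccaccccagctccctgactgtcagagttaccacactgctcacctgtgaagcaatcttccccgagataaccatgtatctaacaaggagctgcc
The motifs searched, on both strands, were the ISRE core GAAANNGAAA, which interferon-activated factors bind, the NF-kB consensus, the AP-1 site TGAGTCA, the CRE TGACGTCA, the C/EBP core TTGCNNAA, the CArG box and the TATA box TATAAA. The Cxcl10 window held the ISRE core 213 to 204 bases before the start, NF-kB matches at 159 to 150 and at 104 to 94, where 2 overlapping matches were counted as a run, and an AP-1 site at 74 to 68. The Irf1 window held an NF-kB match 13 to 4 bases before the start. Irf1 has 2 entries among the promoter windows, and the first is the one shown. The S100a8 window held a TATA box at 30 to 25 and the S100a9 window a C/EBP core at 236 to 229. Among 32851 promoter windows of the same length 2.98% held the ISRE core, 7.25% the NF-kB consensus, 4.46% the AP-1 site, 9.56% the C/EBP core and 12.4% the TATA box. The CRE (1.55%) and the CArG box (1.47%) were in none of the 4 windows. A match is a run of letters and not evidence that a factor was bound.

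The arrays matched their genotype labels. Trem2 lay between 6.40 and 6.83 (log2 intensity) on the 11 KO arrays and between 10.00 and 10.75 on the WT arrays. The microglial genes P2ry12, Tmem119, Cx3cr1 and Csf1r were at 11.54 to 12.51 on all 6 arrays. Summed markers of oligodendrocytes (1934 to 2012 intensity units in set B and 1869 to 2095 in KO cuprizone), neurons, endothelium and lymphocytes overlapped between the groups. Those of astrocytes were lower in set B without overlap, at 508 to 529 against 547 to 588, while their defining genes Gfap and Aqp4 did not pass the filter on low values. Of the 8 astrocyte markers that passed, 1 lay lower in set B without overlap (6.31% of all genes did). It was Slc1a3, at 7.09 to 7.43 against 7.44 to 7.66 (log2). The median difference of the 8 was -0.01. The KO cuprizone arrays did not form a tight group. The mean of 35 measured immediate-early genes was 9.24 (log2) on KO cuprizone 1 but 8.38 and 8.41 on KO cuprizone 2 and 3, and 8.20 on WT cuprizone 3, whereas the other 19 arrays of the series lay between 9.22 and 9.43. KO cuprizone 1 differed by over 2-fold from KO cuprizone 2 at 154 genes and from KO cuprizone 3 at 177 genes, against 43 genes between arrays 2 and 3 and 30 to 48 between set B arrays.

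Set B differed from KO cuprizone at 19 of 11830 genes, 0.161% of those tested (limma on all 22 arrays, adjusted p under 0.05). Of these, 11 were higher in set B (0.093%) and 8 lower (0.0676%). The higher genes were led by Cxcl10 and Osm, both inflammatory mediators, and included Ccrl2, Gpr84 and Irf1, which myeloid cells raise on activation. The lower genes were led by S100a8 and S100a9, the subunits of calprotectin, which neutrophils hold in large amounts. The split between higher and lower depended on scaling: quantile normalization gave 7 higher and 11 lower, and centring each array on its median gave 24 and 8. At an unadjusted p under 0.05 the counts were 624 higher (5.27%) and 490 lower (4.14%). The 6 arrays alone called 0 genes, so the 19 calls rest on the spread shared with the other 16 arrays.

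**Figure D1:**
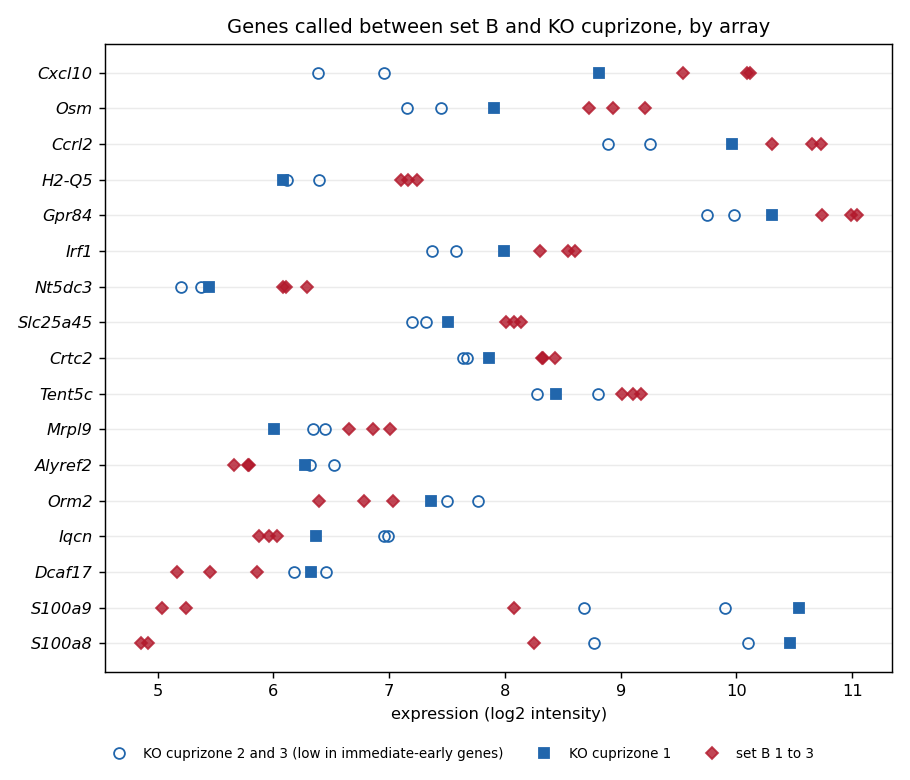
Log2 intensity of the 17 called genes taken by the naming rule, 1 row for each gene and 1 symbol for each array. Red diamonds are set B, the filled blue square is KO cuprizone 1 and open blue circles are KO cuprizone 2 and 3; Cxcl10 runs from 6.39 to 8.81 in KO cuprizone and from 9.54 to 10.11 in set B.

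Cxcl10, an interferon-induced chemokine that attracts T cells, was at 9.54, 10.09 and 10.11 (log2 intensity) on the set B arrays and at 8.81, 6.96 and 6.39 on KO cuprizone arrays 1 to 3. All set B arrays lay above, and the lower KO cuprizone values were those of arrays 2 and 3. The log2 difference was 2.53 ± 0.44 (SE, n = 3 and 3), or 5.76-fold (limma adjusted p = 0.0253). It was 1.10 ± 0.29 against KO cuprizone 1 alone (adjusted p = 0.209). Osm encodes oncostatin M, an interleukin-6 family cytokine. It was at 8.73, 8.93 and 9.21 in set B and at 7.90, 7.15 and 7.45 in KO cuprizone, again with KO cuprizone 1 nearest to set B. Its difference was 1.46 ± 0.29 (adjusted p = 0.0471), and 1.05 ± 0.23 against KO cuprizone 1 alone (adjusted p = 0.111).

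Gpr84, a receptor for medium-chain fatty acids that activated microglia raise, was at 10.74, 10.99 and 11.04 in set B and at 10.31, 9.98 and 9.74 in KO cuprizone. The difference was 0.91 ± 0.15 (adjusted p = 0.0253). Ccrl2 binds the chemoattractant chemerin without signalling. Its values of 10.31, 10.65 and 10.73 in set B stood above 9.96, 8.89 and 9.26 in KO cuprizone, a difference of 1.19 ± 0.23 (adjusted p = 0.0471). Irf1, a transcription factor of the interferon response, was at 8.30, 8.61 and 8.55 in set B and at 7.996, 7.58 and 7.37 in KO cuprizone, a difference of 0.84 ± 0.17 (adjusted p = 0.0471). For these 3 genes KO cuprizone 1 was the array nearest to set B, and against it alone the differences were 0.61 for Gpr84, 0.60 for Ccrl2 and 0.49 for Irf1, none of them called.

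H2-Q5, a class I histocompatibility gene, had the lowest adjusted p of the comparison. It was at 7.16, 7.24 and 7.10 in set B and at 6.08, 6.40 and 6.12 in KO cuprizone, so the groups were far apart and each was tight. The difference was 0.97 ± 0.14 (adjusted p = 0.01002), and 1.09 ± 0.19 against KO cuprizone 1 alone (adjusted p = 0.0310). The KO control arrays lay between, at 6.71 and 6.90. H2-Q5 belongs to a family of near-identical genes, so its probes may also measure relatives, and the family's H2-Q4 gave 0.37 ± 0.10 (adjusted p = 0.158). None of 13 measured genes of class I presentation on a separate list, which holds H2-Q4 and the peptide transporters and immunoproteasome but not H2-Q5, was called. Among them B2m, the common light chain, differed by -0.03 ± 0.08.

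The 5 remaining genes that rose have no shared role. They were Nt5dc3, a nucleotidase family member (0.82 ± 0.14), Slc25a45, a mitochondrial carrier (0.74 ± 0.14), Crtc2, a coactivator of the cAMP-responsive factor CREB (0.63 ± 0.11), Tent5c, a poly(A) polymerase (0.59 ± 0.12), and Mrpl9, a mitochondrial ribosomal protein (0.58 ± 0.12), with adjusted p from 0.0253 to 0.0471. For Crtc2 the set B values of 8.32 to 8.43 lay near the KO control values of 8.24 and 8.57, and it was KO cuprizone, at 7.64 to 7.86, that stood apart. Mrpl9 was at 7.01, 6.86 and 6.65 in set B and at 6.003, 6.35 and 6.45 in KO cuprizone. For Mrpl9, unlike the inflammatory genes, KO cuprizone 1 was the array farthest from set B, and the difference against it alone was 0.84 ± 0.15 (adjusted p = 0.0307).

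S100a8 was at 4.86, 8.25 and 4.92 (log2 intensity) in set B and at 10.47, 10.10 and 8.77 in KO cuprizone. Set B 2 lay near the lowest KO cuprizone array, while set B 1 and 3 were over 3 log2 units below every KO cuprizone array. The difference was -3.77 ± 0.63 (adjusted p = 0.0253). S100a9 followed the same order of arrays, at 5.04, 8.08 and 5.24 against 10.54, 9.90 and 8.68, a difference of -3.59 ± 0.64 (adjusted p = 0.0253). On set B 1 and 3 both genes lay below or near the array medians of 5.17 to 5.27, a range in which low genes are not told from background, so the size of these differences is not exact. Against KO cuprizone 1 alone the differences were as large, -4.46 ± 0.84 and -4.42 ± 0.82, with an adjusted p of 0.0519 for each. The KO control arrays stood with KO cuprizone, at 9.57 and 9.71 for S100a8 and at 9.68 and 9.90 for S100a9.

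Of the other granulocyte markers measured none passed the test. Ngp, a neutrophil granule protein, was at 4.45, 5.16 and 4.72 in set B and at 6.76, 6.66 and 5.64 in KO cuprizone, a difference of -1.58 ± 0.45 (adjusted p = 0.198). Camp, which encodes cathelicidin, differed by -1.20 ± 0.40 and Lcn2, which encodes lipocalin 2, by -1.34 ± 0.45. In set B, Ngp and Lcn2 (4.435 to 4.676) lay below the array medians of 5.17 to 5.27, so the sizes of their differences are not exact. With the mean of the immediate-early genes as a covariate these 3 genes were called, Ngp at -2.60 (adjusted p = 0.00505), Camp at -2.15 (adjusted p = 0.00505) and Lcn2 at -2.26 (adjusted p = 0.0249). Within groups this mean varies mainly through KO cuprizone 2 and 3 and WT cuprizone 3. These calls are therefore not separate from setting those arrays aside. Of the 17 neutrophil markers listed 10 were measured. Their median difference was -0.83 against 0.01 over all genes tested. S100a8 and S100a9 were called, while Csf3r, Retnlg, Mmp9 and Mpo lay between -0.06 and 0.11. The summed intensity of the whole list was 957 to 1593 in set B and 1837 to 4075 in KO cuprizone. Without S100a8 and S100a9 the sums were 895 to 1018 and 990 to 1185, and the groups overlapped. Csf3r, at 9.08 to 9.27 in set B and 8.88 to 9.24 in KO cuprizone, weighs most in these sums. They therefore say little about the lower markers. All set B arrays lay below all KO cuprizone arrays at 4 of the 10 markers measured, against 6.31% of all genes. These were S100a8, S100a9, Ngp and Camp. Ly6g, the defining neutrophil surface marker, was low in both groups (3.01 to 3.52 and 2.93 to 3.83). Fewer neutrophils in the sort and less of these transcripts per cell cannot be told apart in bulk samples. For monocyte markers, with 10 measured, the median difference was -0.31 and the sums were 549 to 580 and 539 to 827.

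The other genes that fell were small in size. Dcaf17, a substrate receptor of a ubiquitin ligase, differed by -0.83 ± 0.15, Iqcn by -0.82 ± 0.15, Orm2, the acute-phase protein orosomucoid 2, by -0.81 ± 0.16 and Alyref2, an RNA export adaptor, by -0.63 ± 0.11 (adjusted p from 0.0253 to 0.0471). Orm2 was at 6.78, 6.39 and 7.03 in set B and at 7.36, 7.77 and 7.50 in KO cuprizone, with the KO control arrays at 7.46 and 7.68. Outside the naming rule, which leaves out clones and predicted genes, Gm10677 (-0.63) and 4933407L21Rik (-0.50) were also called.

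The lists to which the inflammatory genes belong lay higher in set B on balance, and the size of this difference depended on KO cuprizone 2 and 3. None of 35 measured immediate-early genes was called, although 31 of them had a positive difference and the median was 0.59. Nr4a1, a nuclear receptor induced by stimulation, gave 2.27 ± 0.73 (adjusted p = 0.267). It was at 9.88, 10.60 and 10.63 in set B and at 10.10, 7.16 and 7.05 in KO cuprizone, so that KO cuprizone 1 lay inside the set B range. Atf3 (1.04), Junb (1.05), Ier2 (1.23), Fos (0.44), Jun (0.40) and Dusp1 (0.23) were likewise not called. The median of the list was 0.06 against KO cuprizone 1 alone, where Ier2 differed by -0.04 and Atf3 by 0.02. All set B arrays lay above all KO cuprizone arrays at 11 of the 35 genes (31.4%, against 8.36% of all genes; the reverse order held for 6.31%). They lay above KO cuprizone 1 at 12 of the 35 (34.3%, against 30.1% of all genes, with 26.5% below). KO cuprizone 2 and 3 were set apart by the mean of these same 35 genes. The smaller difference without them therefore follows from that choice.

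Among 17 measured genes of NF-kB signalling and its feedback the median difference was 0.74 and all were positive. Gpr84 was the called gene. Tnfaip3, the inhibitor A20, gave 1.43 ± 0.41 (adjusted p = 0.196), Cd83 1.34 ± 0.28 (adjusted p = 0.0557) and Nfkbia 1.05 ± 0.32 (adjusted p = 0.240). Nfkbia was at 11.07, 11.27 and 11.31 in set B, at 11.15 on KO cuprizone 1 and at 9.68 on both other KO cuprizone arrays. The median against KO cuprizone 1 alone was 0.17.

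All 21 measured inflammatory cytokines and chemokines had a positive difference, with a median of 0.89, and Cxcl10 and Osm were called. Il1b, the cytokine interleukin-1 beta, varied widely between KO cuprizone arrays. It was at 9.52, 9.93 and 9.63 in set B, at 9.24 on KO cuprizone 1 and at 5.56 and 5.63 on KO cuprizone 2 and 3. Its difference of 2.88 ± 0.79 was not called (adjusted p = 0.178), and it was 0.46 ± 0.23 against KO cuprizone 1 alone. Tnf gave 1.73 ± 0.47 (adjusted p = 0.172), Ccl3 1.02 ± 0.26 (adjusted p = 0.133) and Ccl4 1.66 ± 0.36 (adjusted p = 0.0582), 0.52, 0.03 and 0.58 against KO cuprizone 1 alone. The median of the list was then 0.19, and the set B arrays lay above KO cuprizone 1 at 12 of the 21 genes (57.1%, against 30.1% of all genes). They lay above all 3 KO cuprizone arrays at 10 of the 21 (47.6%, against 8.36% of all genes). Such shares were not particular to this list. For ribosomal protein genes, with a smaller median of 0.11, they were 13 of 25 (52%), and 22 of 25 (88%) above KO cuprizone 1. Of 28 measured interferon response genes Cxcl10, which is on both lists, was called; the median was 0.19, and Mx2, an antiviral GTPase, ran the other way at -0.68 ± 0.19.

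**Figure D2:**
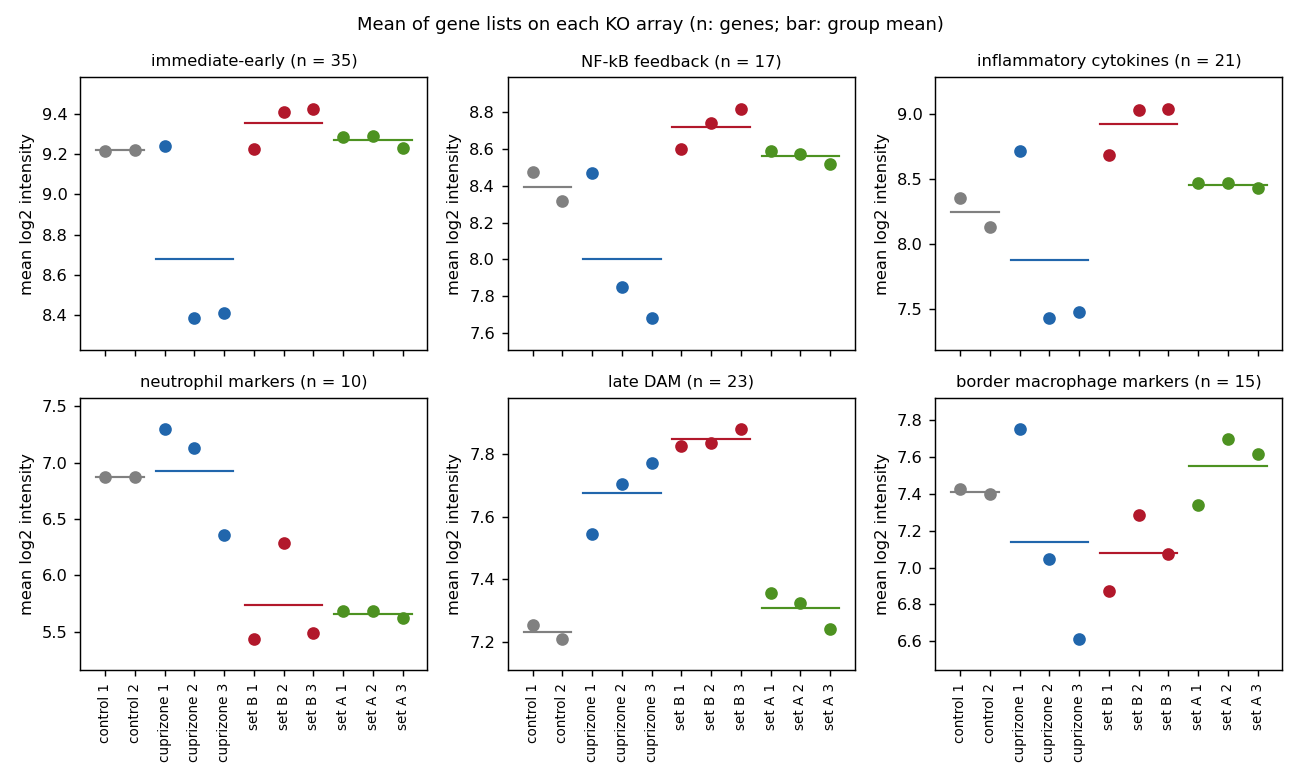
Mean log2 intensity of 6 gene lists on each of the 11 KO arrays, with points for arrays and a bar for the group mean. KO cuprizone 2 and 3 stand apart in the immediate-early, NF-kB and cytokine panels (8.38 and 8.41 against 9.24 on KO cuprizone 1 for immediate-early genes), and KO cuprizone 1 stands highest in the border macrophage panel at 7.75.

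Without KO cuprizone 2, KO cuprizone 3 and WT cuprizone 3, KO cuprizone was a single array assumed to vary like the other groups, and 10 genes were called (6 higher, 4 lower), of which H2-Q5 and Mrpl9 were also among the 19. The 8 others, named after their values were seen, were Apoc1, Cdk5rap1, Chst1 and Mitf, which were higher in set B, and Camp, Lcn2, Ifi203 and Mrc1, which were lower. With the mean of the immediate-early genes added as a covariate, 17 genes were called and 4 were shared with the 19: H2-Q5, Mrpl9, S100a8 and S100a9. Within groups that mean varies mainly through the same low arrays, so the covariate fit is not a separate check. Of the 3 KO cuprizone arrays, number 1 weighed most: without it 218 genes were called (151 higher, 67 lower). Leaving out any other of the 6 arrays left 0 to 4 calls, 0 without set B 3, 1 without KO cuprizone 2, 3 without set B 2, and 4 without KO cuprizone 3 or set B 1.

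KO cuprizone 1 also differed from the others in genes that are not immediate-early. Mrc1, the mannose receptor of macrophages at the borders of the brain, was at 9.63 on KO cuprizone 1, at 8.60 and 8.09 on KO cuprizone 2 and 3, and at 8.29, 8.76 and 8.47 in set B. Of 15 border macrophage markers, all measured, none was called, and the median difference was -0.13. All set B arrays lay below KO cuprizone 1 at 14 of the 15, against 26.5% of all genes, and the median against it alone was -0.56. The summed intensity of the list was 2523 to 3406 in set B and 2336 to 4779 in KO cuprizone, whose highest array was number 1 by the list means (7.75, 7.05 and 6.61 on log2 for arrays 1 to 3). The part of these cells in the comparison with KO cuprizone 1 was not tested.

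**Figure D3:**
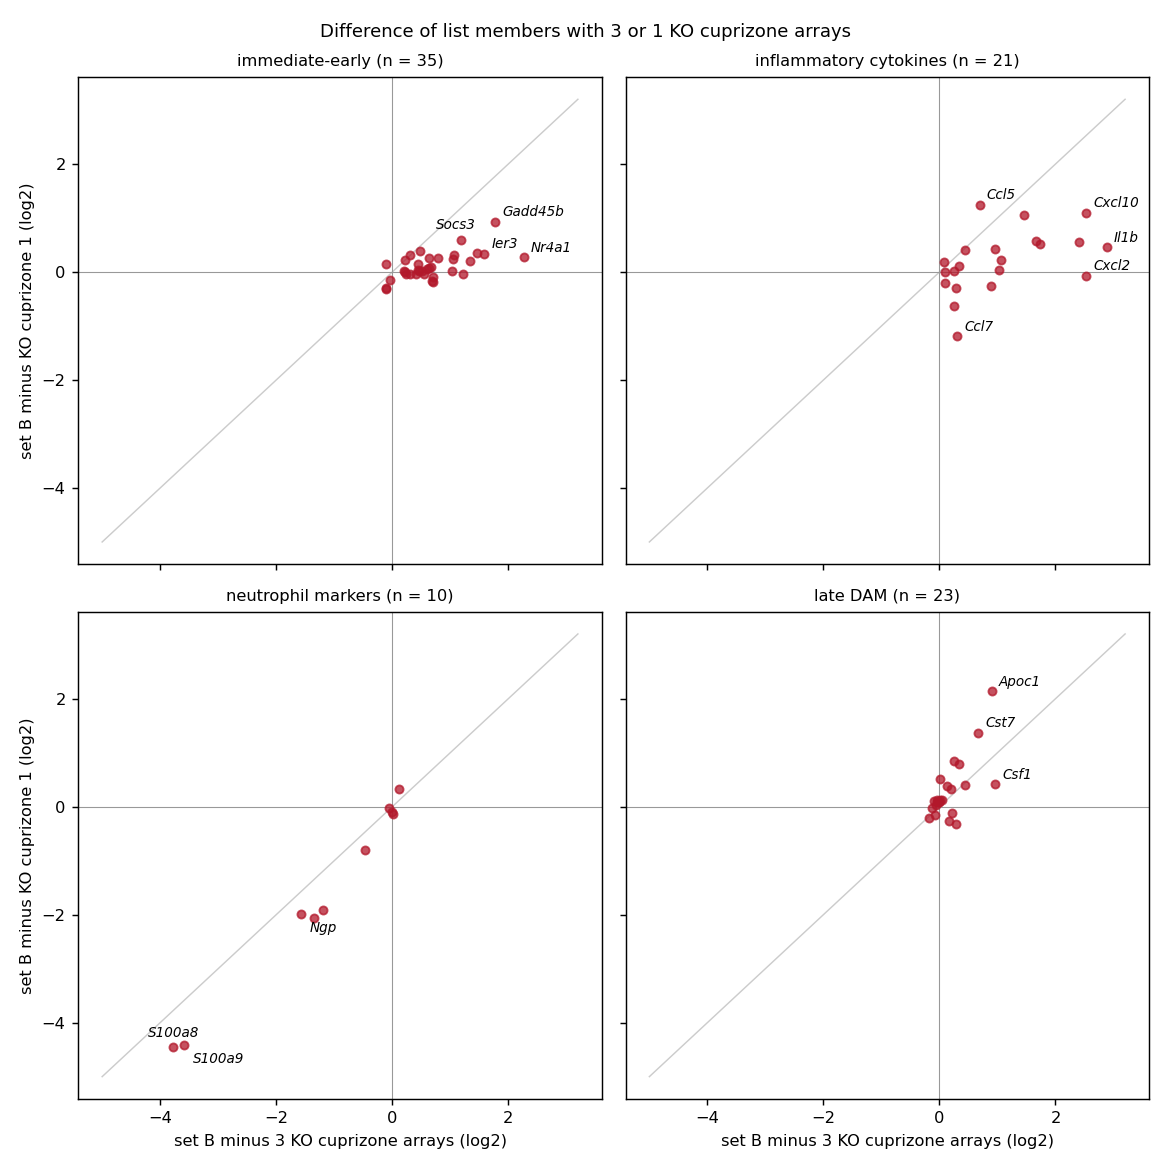
Difference of each measured member of 4 lists (log2), with the mean of 3 KO cuprizone arrays as the base on the horizontal axis and KO cuprizone 1 alone on the vertical axis; the grey diagonal marks equal values. Both axes share the set B arrays and KO cuprizone 1. Immediate-early genes and most cytokines drop toward 0 on the vertical axis, S100a8 and S100a9 stay near -4.4, and Apoc1 and Cst7 rise to 2.14 and 1.37.

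Of the DAM genes that Trem2 controls, none of the 23 measured on the late DAM list was called between set B and KO cuprizone, and the median was 0.05. Lpl, lipoprotein lipase, was at 5.73, 5.83 and 5.37 in set B and at 5.51, 5.30 and 5.98 in KO cuprizone (0.05 ± 0.27). Clec7a (0.00 ± 0.18), Axl (0.01 ± 0.22) and Itgax (-0.17 ± 0.23) overlapped in the same way. Csf1 (0.96 ± 0.20, adjusted p = 0.0563) and Cxcl16 (0.43 ± 0.10, adjusted p = 0.0837), both on the cytokine list too, had set B arrays that all lay above KO cuprizone. They were the 2 such genes of the 23 (8.7%), a share near the 8.36% of all genes. Against KO cuprizone 1 alone the list median was 0.12. All set B arrays lay above that array at 14 of the 23 (60.9%, against 30.1% of all genes) and below at 5.

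Cst7, which encodes the protease inhibitor cystatin F, was at 8.54, 8.82 and 8.67 in set B and at 7.30, 8.15 and 8.59 in KO cuprizone. The difference of 0.66 ± 0.36 was not called (adjusted p = 0.611), and the groups overlapped at KO cuprizone 3. In contrast to Il1b, KO cuprizone 1 was the low array here, and Cst7 was 1.37 ± 0.27 higher against it alone, also not called (adjusted p = 0.0587). With the mean of the immediate-early genes as a covariate Cst7 was called, at 1.57 (adjusted p = 0.00926). Both groups lay above KO control (6.20 and 5.80). Apoc1, an apolipoprotein of DAM cells, had the same order of arrays, at 6.71, 7.28 and 7.57 in set B and at 5.05, 6.59 and 7.21 in KO cuprizone. Its difference was 0.91 ± 0.51 with 3 KO cuprizone arrays (adjusted p = 0.627) and 2.14 ± 0.27 with array 1 alone. The 5.05 of KO cuprizone 1 lay below the array medians of 5.17 to 5.27, so the size of the latter is not exact. With the covariate Apoc1 was called at 2.29 (adjusted p = 0.00238) and Gpnmb, a lysosomal glycoprotein, at 1.10 (adjusted p = 0.0446), and the median of the late DAM list was 0.50. The covariate varies within groups mainly through the arrays low in immediate-early genes. Its calls are therefore not separate from the values against KO cuprizone 1 alone. By the mean of the late DAM list KO cuprizone arrays 1 to 3 were at 7.55, 7.70 and 7.77, the set B arrays at 7.83 to 7.88 and the KO control arrays at 7.21 and 7.26.

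No gene of the homeostatic, lipid or antioxidant lists was called. With 0.161% of all genes called, 0 calls is what most lists of this size would give. The same holds for the other lists without a call. Among 24 measured homeostatic genes the median was -0.09 and 21 were negative, but the differences ran only from -0.21 to 0.20. All set B arrays lay below all KO cuprizone arrays at 6 of the 24, against 6.31% of all genes, and above at 0. Against KO cuprizone 1 alone the median was 0.04. All set B arrays lay above that array at 10 of the 24 (41.7%, against 30.1% of all genes) and below at 6 (26.5% of all genes). P2ry12 gave -0.09 ± 0.08, Tmem119 -0.15 ± 0.09, Cx3cr1 -0.18 ± 0.09 and Csf1r -0.12 ± 0.08. For the 9 early DAM genes the median was 0.01, with Apoe at 0.14 ± 0.13. With 3 KO cuprizone arrays as the base, 4 further lists stayed near the median of all genes. These were lipid uptake and storage (13 measured, median -0.03), cholesterol efflux (16, median 0.03), cholesterol synthesis (21, median -0.02) and lysosomal genes (37, median -0.02). Against KO cuprizone 1 alone their medians were -0.26, 0.14, 0.02 and 0.06, in the same order. All set B arrays lay below that array at 7 of the 13 lipid genes (26.5% of all genes). They lay above it at 10 of the 16 efflux genes (62.5%) and 20 of the 37 lysosomal genes (54.1%), against 30.1% of all genes. Of the 9 measured genes of tocopherol handling, such as Abca1 and Scarb1, the median was 0.05. All set B arrays lay above all 3 KO cuprizone arrays at 1 of these 9 (11.1%, against 8.36% of all genes). They lay above KO cuprizone 1 at 7 of the 9 (77.8%, against 30.1% of all genes). That share was not particular to this list, since ribosomal protein genes gave 88%.

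Among 23 antioxidant genes driven by NRF2 the median was 0.15. All set B arrays lay above all KO cuprizone arrays at 4 of them (17.4%, against 8.36% of all genes) and below at 1. Hmox1, heme oxygenase 1, was at 9.50, 10.02 and 9.67 in set B and at 9.93, 8.43 and 8.79 in KO cuprizone, with KO cuprizone 1 inside the set B range. It gave 0.68 ± 0.25 (adjusted p = 0.349) with 3 KO cuprizone arrays and -0.20 ± 0.19 against array 1 alone. Sqstm1, an autophagy receptor, gave 0.74 ± 0.20 (adjusted p = 0.181). Heat shock genes (17 measured) had a median of 0.26, and 0.04 against KO cuprizone 1 alone. For 20 genes of glycolysis and hypoxia the median was 0.18, and 15 of them (75%, against 30.1% of all genes) lay above KO cuprizone 1 on all set B arrays; Tpi1, a glycolytic enzyme, gave 0.46 ± 0.13 (adjusted p = 0.209). Myelin transcript Mbp, which can enter with debris, gave 0.08 ± 0.13.

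**Figure D4:**
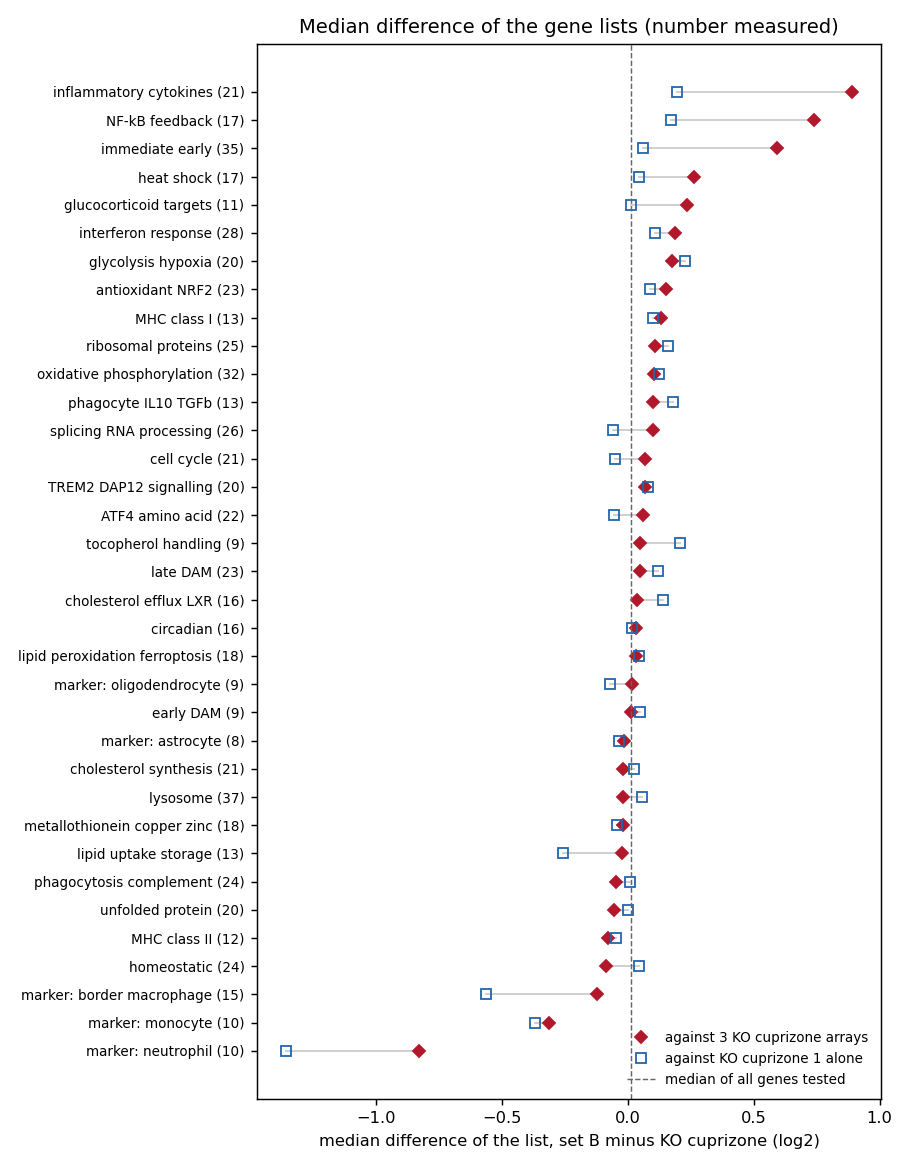
Median log2 difference, set B minus KO cuprizone, of the gene lists with at least 8 measured members, with the number measured in brackets. Red diamonds use 3 KO cuprizone arrays and open blue squares KO cuprizone 1 alone; the cytokine list moves from 0.89 to 0.19, while the neutrophil list moves from -0.83 to -1.36.

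Set A was compared with the same 3 KO cuprizone arrays, so the values are given side by side only. No gene was called for set A (0%, lowest adjusted p = 0.0859, limma), with 1292 genes at an unadjusted p under 0.05. S100a8 was at 6.07, 6.64 and 6.08 in set A, a difference of -3.52 ± 0.63 (adjusted p = 0.0859), beside -3.77 in set B. Cxcl10 differed by 1.03 ± 0.44 in set A and 2.53 in set B, Osm by 0.43 and 1.46, Gpr84 by 0.15 and 0.91, and H2-Q5 by 0.45 and 0.97. Cst7 differed by -1.83 ± 0.36 in set A (adjusted p = 0.122), with arrays at 6.28, 6.29 and 5.97, beside 0.66 in set B. Clec7a differed by -1.06 in set A and by 0.00 in set B.

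WT microglia give 2 counterparts that share no array with the KO comparison, 1 for each reading of the set B labels. WT mice fed both additives differed from WT mice fed cuprizone at 18 genes (0.152%; 13 higher, 5 lower), and WT mice fed Covi-Ox alone at 439 (3.71%; 118 higher, 321 lower; 184 and 277 after quantile normalization). Of the 19 genes called in KO, 11 had the same sign in WT with both additives and 0 were called there; 9 had the same sign in WT with Covi-Ox alone and 2, S100a8 and S100a9, were called there. Over all genes the sign was shared by 52.9% and 47.2%. In WT with both additives Cxcl10 gave 1.39 ± 0.44 and Osm 1.26 ± 0.29, and in WT with Covi-Ox alone -0.63 ± 0.44 and -0.32 ± 0.29. S100a8 gave -1.84 ± 0.63 (adjusted p = 0.363) and -4.50 ± 0.63 (adjusted p = 0.000355). H2-Q5 gave -0.03 in both. WT cuprizone 3 is also low in immediate-early genes. Without it 104 genes were called for both additives and 126 for Covi-Ox alone. These counts do not show how the differences of the genes above would change. The KO and the WT cuprizone base each held at least 1 array low in these genes. The part of such arrays in the shared signs was not tested.

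The difference between the KO and the WT contrast was tested directly. Under the description of set B, set against WT mice fed both additives, 1 gene differed (0.00845%). This was Olr1, a scavenger receptor for oxidized lipoprotein, at -2.75 ± 0.25 (adjusted p = 1.32e-05). It rose to 8.06 to 8.24 in WT with both additives from 5.32 to 6.22 in WT cuprizone, and lay between 3.89 and 4.57 on all 6 KO arrays. The KO values were below the array medians of 5.17 to 5.27, and the gene passed the filter through WT arrays, so on the KO side a difference may lie under what the arrays resolve. At an unadjusted p under 0.05 the count was 770. Without the 3 arrays low in immediate-early genes 25 genes differed, Olr1 among them.

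Under the title of set B, set against WT mice fed Covi-Ox alone, 274 genes differed (2.32%; 207 positive, 67 negative; 162 and 112 after quantile normalization). Here 17 of 23 late DAM genes had a positive difference that was called, with a list median of 1.74. In WT with Covi-Ox alone 19 of the 23 were called lower than in WT cuprizone, and in KO none was called. Cst7 gave 3.88 ± 0.51, made up of 0.66 ± 0.36 in KO and -3.22 ± 0.36 in WT. Lpl gave 3.22 ± 0.38, Itgax 2.91 ± 0.32, Clec7a 2.33 ± 0.26 and Axl 2.50 ± 0.30. Of the 28 interferon response genes 14 differed in the same direction. Without the 3 low arrays 99 genes differed, and with the immediate-early covariate 761.

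**Figure D5:**
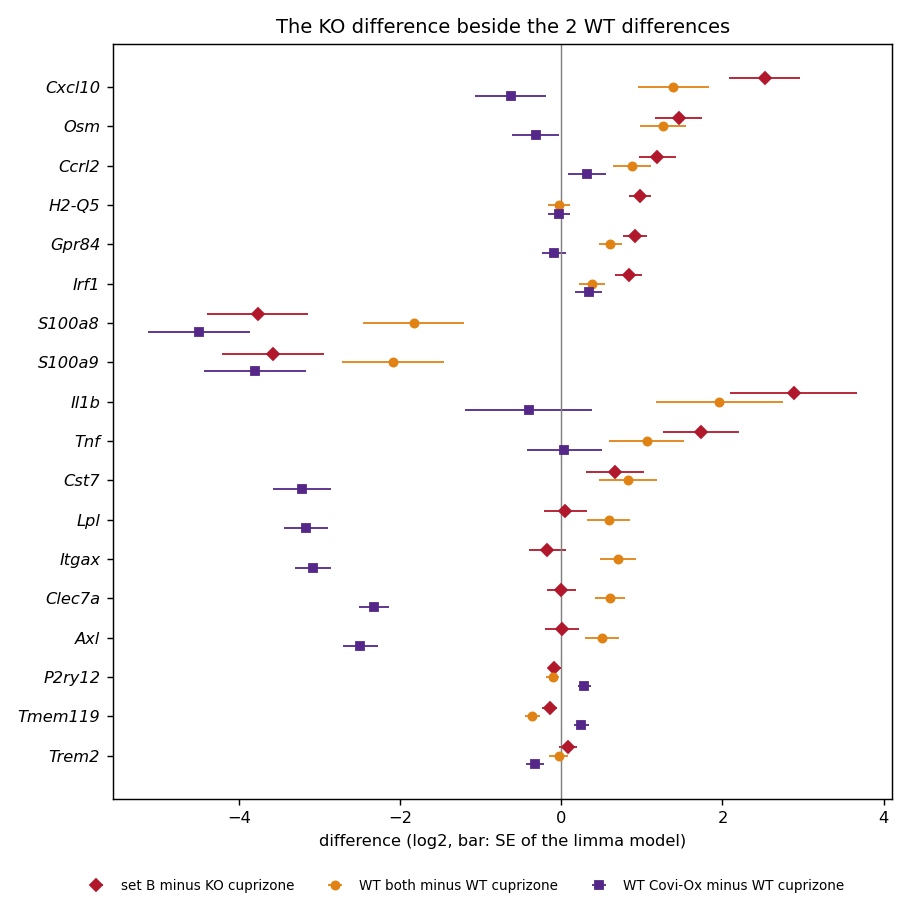
Log2 difference with its SE for 18 genes: set B minus KO cuprizone (red diamonds), WT both minus WT cuprizone (orange circles) and WT Covi-Ox minus WT cuprizone (purple squares). Cxcl10 and Osm lie above 0 in KO and in WT with both additives. The late DAM genes lie between -2.33 and -3.22 in WT with Covi-Ox alone. In KO they lie near 0 except Cst7, at 0.66. S100a8 and S100a9 are below 0 in all 3.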

How the data were processed

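RNA of sorted microglia was measured on 22 mouse gene arrays (Affymetrix MoGene 1.0 ST). The intensity values were deposited by the authors on a linear scale after RMA, per the submitters' processing notes; the RMA version is not given in the sources used here. RMA equalises the arrays' distributions, so a change in total RNA cannot be seen. Log2 of the deposited values was taken. Of 28098 probe sets 21640 named a single gene; each gene used its probe set with the highest mean, and a gene was tested if at least 2 arrays had it above their 50th percentile (11830 of 19936 genes). Array number limits the precision.

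limma 3.58.1 in R 4.3.3 fitted 8 group means to all 22 arrays (14 residual degrees of freedom, prior 5.49), with 6 comparisons and Benjamini-Hochberg adjustment within each; errors are SEs of this model. The workflow was tested on simulated data. Genes were named by a rule: up to 12 called rises and 12 falls without overlap between arrays, up to 4 called per list, and 23 set genes; every other gene named was chosen after its values were seen. The members and the 41 gene lists were chosen with earlier results of these data known. Lists not named in the results held no called gene. Alternatives covered filter, scaling, probe sets, variance options, blocks, left-out arrays and the immediate-early mean.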

Additional observations from a re-analysis of the deposited data

Results flagged for a closer look

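The difference of the KO and WT contrasts passed the test at 1 gene under the description of set B and at 274 genes under its title. Under the description Olr1 stood at -2.745 (log2), being higher with both additives in WT; its KO values lay below the array medians.

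Under the title, the genes with the largest positive differences were Cst7 (3.881), Apoc1 (3.88), Ch25h (3.272), Lpl (3.219), Cxcl10 (3.158), Gpnmb (3.112), Fn1 (3.036) and Tnfsf9 (2.969). Ch25h makes an oxysterol, Gpnmb is a lysosomal glycoprotein of DAM cells and Tnfsf9 a costimulatory ligand. Of these, Cxcl10 was also called in KO, while the KO difference of Ch25h, Lpl, Gpnmb and Fn1 was at most 0.33 in size. The genes with the largest negative differences were Snora31 (-1.522), Gpr165 (-1.345), Orm2 (-1.242), Dnajb13 (-1.186), Iqcn (-1.185), Polg2 (-1.143), Zfp605 (-1.141) and Ptbp2 (-1.126). Orm2 and Iqcn fell in KO, at -0.81 and -0.82, and gave 0.43 and 0.37 in WT with Covi-Ox alone.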

How the results depend on the processing

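The numbers of called genes depended on the processing. Each of the 19 genes kept its sign under every alternative that tested it, but the sign had little room to change. Several alternatives, such as the trend and robust options, leave the difference itself as it was. For the genes named without overlap between arrays, leaving out arrays cannot reverse the sign. H2-Q5 was called in 16 of 21 alternatives, S100a8 and S100a9 in 13, Gpr84 in 11 and Cxcl10 in 10. For set B against KO cuprizone 19 genes became 0 with the arrays of the 2 groups alone or the 11 KO arrays alone, 12 with no filter, 30 with the 75th percentile filter, 32 with median centring, 8 with limma's robust option, 169 with array weights, 5 at 2-fold or more, 0 at an adjusted p under 0.01 and 10 without the 3 low arrays; leaving out each array in turn gave 0 to 218. Same-numbered arrays were not treated as pairs. Their deviations from the group means had correlations of -0.02, 0.01 and 0.01. With 3 arrays in a group these values cannot exclude a shared preparation. With the replicate block 14 were called, 13 of them shared, and of the other comparisons the count of set A alone moved by over 1.5 times. Leaving out each array, list medians ran from 0.442 to 0.838 (immediate-early), 0.508 to 1.062 (NF-kB), 0.65 to 1.229 (cytokines), -0.043 (without KO cuprizone 1) to 0.144 (late DAM) and -1.182 to -0.563 (neutrophil). Without the 3 low arrays they were 0.06, 0.17, 0.194, 0.119 and -1.361, and with the immediate-early covariate -0.035, 0.111, 0.334, 0.501 and -1.431. For the immediate-early list both values follow from the setting, since each setting is built on the mean of those same genes. The neutrophil median was -0.136 with no filter and -1.576 with the stricter one, which test other members. Sign changes of uncalled genes whose main difference lay within 2 SE of 0 are not listed; the other sign changes were Ier2 (-0.035 without the 3 low arrays and -0.035 with the covariate), Hmox1 (-0.203 without the 3 low arrays) and Atf3 (-0.224 with the covariate).

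For set A against KO cuprizone, with 0 called, the replicate block, the groups alone and the KO arrays alone each gave 1, the stricter filter 5, quantile normalization 2, array weights 190, no low arrays 5, the covariate 3 and left-out arrays 0 to 263 (263 without KO cuprizone 1). For WT both against WT cuprizone, with 18, the groups alone gave 2, no filter 9, the stricter filter 10, array weights 150, at least 2-fold 6, adjusted p under 0.01 5, no low arrays 150, the covariate 64 and left-out arrays 4 (without WT cuprizone 2) to 104 (without WT cuprizone 3). For WT Covi-Ox, with 439, the groups alone gave 25, at least 2-fold 100, adjusted p under 0.01 161, no low arrays 188, the covariate 229 and left-out arrays 126 (without WT cuprizone 3) to 636. The difference from WT under the description, with 1, gave 2 with the stricter filter, 2 with median centring, 26 with array weights, 25 without low arrays and 1 to 33 (without WT cuprizone 3) with left-out arrays. Under the title, with 274, it gave 81 from the groups alone, 124 at 2-fold or more, 66 at an adjusted p under 0.01, 99 without low arrays, 761 with the covariate and 116 (without WT Covi-Ox 2) to 389 with left-out arrays. The cause of these changes was not tested, beyond the fewer arrays or genes that a setting uses.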
